A study of Mus musculus with 6 samples.

Results

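The transcripts followed here are 10 genes that mark the kidney's interstitial fibroblasts, pericytes and myofibroblasts, other than the collagens. They were the platelet-derived growth factor receptors Pdgfra and Pdgfrb, the matrix genes Postn, Dcn, Lum and Fn1, the contractile genes Acta2 and Tagln, and the intermediate filament genes Vim and Des. They were chosen by symbol, and all 10 were found among the 24422 genes of the count tables. Poly-A RNA of whole C57BL/6 mouse kidneys at postnatal day 13 was sequenced, with 3 biological replicates each of Control (genotype wild type) and TfR1 knockout (Tfr1f/f;SixCre, deleted with Six2Cre). Both groups received the iron sufficient diet (220 ppm iron). The question was which transcripts differ in the kidney when the transferrin receptor is deleted in the nephron lineage. The Six2 promoter drives Cre in nephron progenitors, and the study describes cells that escaped the deletion and were present in tubules at this age. Total counts ran from 16591156 to 22898008 per library, and every member had at least 62 raw counts in every library. The targeted gene Tfrc overlapped between groups (5229 ± 1434 normalized counts in Control and 5639.8 ± 1482 in TfR1 knockout, mean ± SD, n = 3 each; DESeq2 adjusted p 0.853), so it does not check the group labels.

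The interstitium of the kidney lies between the tubules and descends from stromal progenitors that express Foxd1, not from the Six2-expressing cells that make the nephron. Its fibroblasts carry Pdgfra and Pdgfrb, deposit matrix, and secrete the small leucine-rich proteoglycans decorin (Dcn) and lumican (Lum), which bind collagen fibrils. Pericytes wrap the capillaries and carry Pdgfrb. Both are regarded as sources of myofibroblasts, the contractile, matrix-producing cells of scarring kidneys, which express Acta2 (smooth muscle alpha-actin) and Tagln (transgelin, an actin-binding protein) and make periostin (Postn) and fibronectin (Fn1). In whole-kidney RNA, fewer cells of a type and less RNA per cell cannot be told apart.

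One Control library stood apart in these genes. Relative to the mean of Control replicates 1 and 2, Control replicate 3 was higher for all 10 members, by a median of 1.87-fold, whereas the median over all genes tested was 0.995-fold. It was the highest of the 6 libraries for 9 members (all but Des), which was so for 22.1% of the 16509 genes tested. Proximal tubule markers moved the other way there. Their summed level was 56599.8 normalized counts in Control replicate 3 against 122728 and 121089 in Control replicates 1 and 2. Podocyte markers were lower there too, at 11288 against 15941 and 17485. Endothelial markers were higher there, as the members were, at 44660.3 against 28932 and 28307. TfR1 knockout replicate 2 was the lowest of the 6 libraries for 7 members (Acta2, Des, Fn1, Lum, Postn, Tagln and Vim), against 27.9% of all genes tested. Within the groups, Control replicate 3 was the highest Control library for 10 of 10 members (43.4% of all genes tested) and TfR1 knockout replicate 2 the lowest knockout library for 7 (40.2%). Each member is therefore also given without Control replicate 3, and values per library are listed in the order of replicates 1 to 3.

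**Figure D1:**
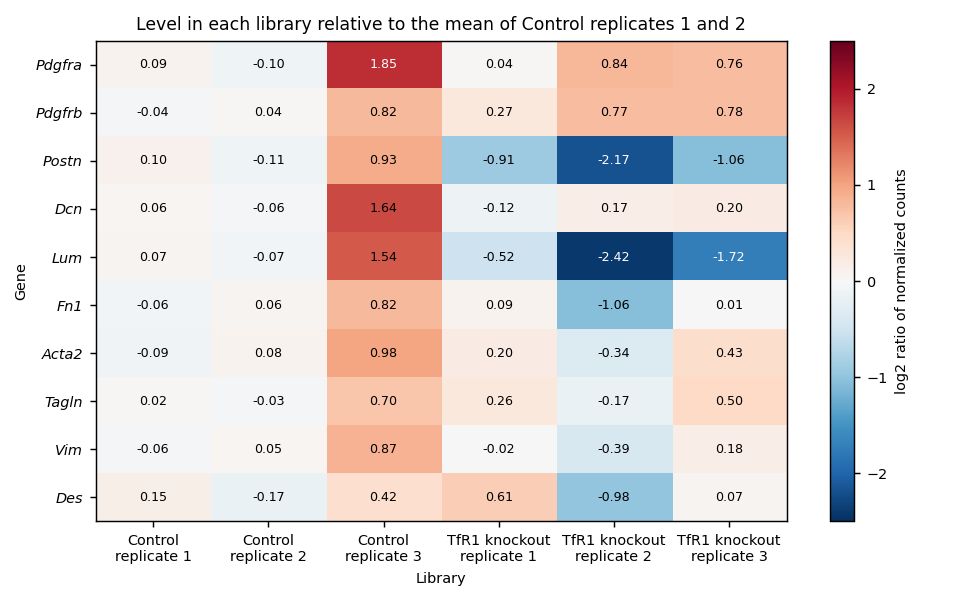
Each cell gives the log2 ratio of a member's normalized count in 1 library (columns) to the mean of Control replicates 1 and 2 (rows are genes). The column of Control replicate 3 is above 0 for all 10 genes, from 0.42 for Des to 1.85 for Pdgfra, and in the TfR1 knockout columns the rows of Postn and Lum alone are below 0 throughout.

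Postn and Lum were lower in TfR1 knockout kidneys, at 0.315 and 0.242 of the Control level, and the remaining 8 members did not pass the test. The threshold was a DESeq2 adjusted p below 0.05, with the adjustment made over all genes tested (14.9% of them passed). By this rule 0 members rose and 2 of 10 fell, against 7.74% and 7.18% of all genes tested (1277 higher and 1186 lower). With total-count scaling, which shifted the median of all genes by -0.10 on the log2 scale, the counts over all genes were 996 higher and 1407 lower. Both members that fell also changed at least 2-fold, a rule that 8.87% of all genes met (4.41% higher and 4.46% lower). The edgeR quasi-likelihood test called none of the 10, against 6.02% of all genes (3.22% higher and 2.8% lower), with Postn and Lum at an unadjusted p under 0.05 (0.0033 and 0.0105) and no other member. limma-voom called Postn, with 6.15% of all genes (3.17% higher and 2.98% lower). The median log2 fold change of the 10 members was -0.36, and that of all genes tested was 0.0071. Without Control replicate 3 the members' median was 0.063, and 1 member was called higher (Pdgfrb) and 1 lower (Postn), against 14.3% of all genes (7.53% higher and 6.78% lower).

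**Figure D2:**
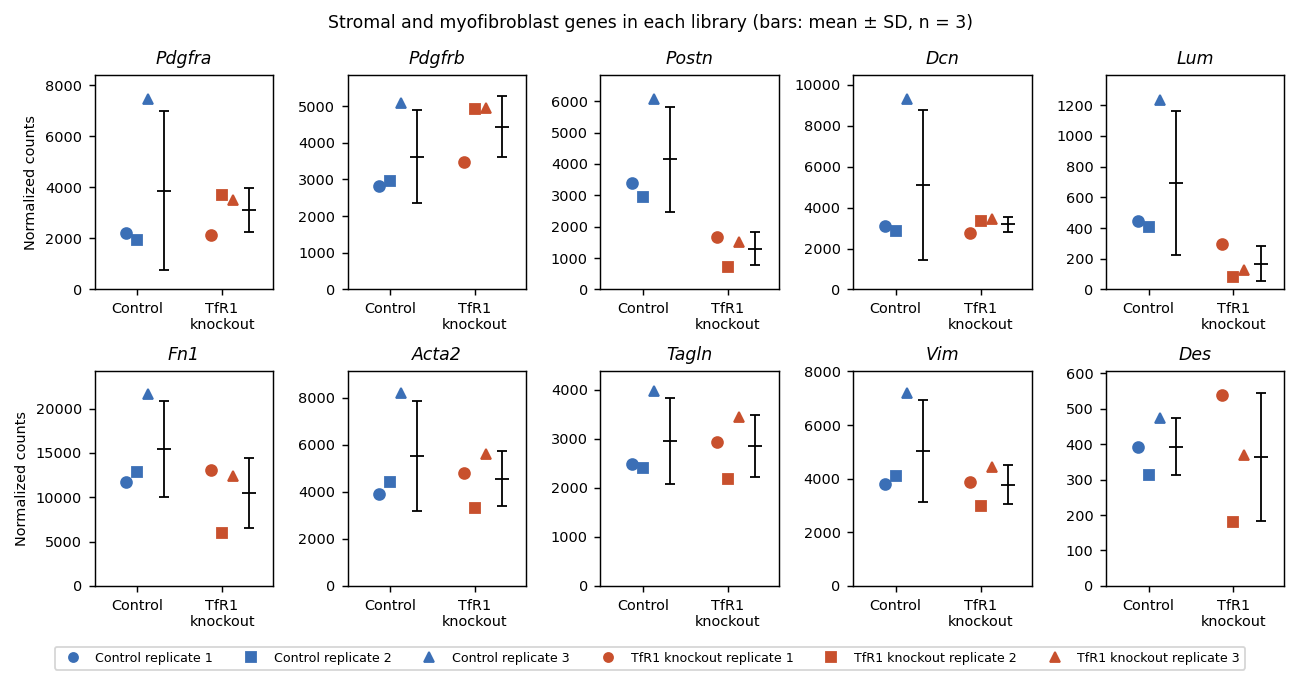
Normalized counts (vertical axes, linear from 0) of the 10 members in each of the 3 Control and 3 TfR1 knockout libraries, with a bar for the mean ± SD of each group (n = 3). In Postn and Lum every TfR1 knockout point is below every Control point, and in the other 8 panels the groups overlap.

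Postn (chromosome 3, 54165031 to 54194961, plus strand, mm9) encodes periostin, a secreted matrix protein of remodelling connective tissue. Its normalized counts were 3405, 2949 and 6071 in the Control libraries and 1686, 705 and 1519 in the knockout libraries. The groups did not overlap, which was so for 16.9% of all genes tested in the lower direction. The Control library with the highest level was replicate 3, and the knockout library with the lowest was replicate 2. The mean fell from 4142 ± 1686 to 1303 ± 525 (SD, n = 3 per group; DESeq2 log2 fold change -1.67 with SE 0.39 and adjusted p 0.000427). Without Control replicate 3 the change was -1.29 (DESeq2 adjusted p 0.00612), and Postn passed the DESeq2 test with any 1 library left out. Under edgeR it narrowly missed the threshold (adjusted p 0.0522), and under limma-voom it narrowly passed (adjusted p 0.0494). Its promoter is printed because Postn is the member that kept its DESeq2 call in each of these fits. The 250 bases before the downstream one of 2 Postn starts in the table (RefSeq, GRCm38.p6, chr3:54360857-54361106, plus strand) hold TATAAA, in capitals, with its first base 26 bases before the start.
Postn: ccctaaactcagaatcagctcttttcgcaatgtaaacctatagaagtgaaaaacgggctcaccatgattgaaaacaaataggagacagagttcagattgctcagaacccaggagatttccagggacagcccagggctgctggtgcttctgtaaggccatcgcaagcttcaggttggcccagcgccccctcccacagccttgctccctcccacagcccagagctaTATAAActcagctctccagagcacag
TATAAA, searched on both strands, was found in 12.4% of 32851 promoter windows of this length, and also before the start of Vim.

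Lum (chromosome 10, 97028135 to 97035337, plus strand) had 445, 404 and 1237 normalized counts in the Control libraries and 296, 79.3 and 129 in the knockout libraries. The groups did not overlap, although TfR1 knockout replicate 1 was the nearest to the Control libraries. The mean fell from 696 ± 469 to 168 ± 114 (SD, n = 3 per group; DESeq2 log2 fold change -2.05 with SE 0.55 and adjusted p 0.00323). The change was -1.34 without Control replicate 3, where the call was lost (DESeq2 adjusted p 0.0621), and -2.74 without TfR1 knockout replicate 1. Neither edgeR nor limma-voom called Lum (adjusted p 0.0896 and 0.101).

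Dcn, the neighbour of Lum on chromosome 10 (96942245 to 96980777, plus strand), encodes the related proteoglycan decorin. It had 3108, 2874 and 9329 normalized counts in the Control libraries and 2757, 3358 and 3441 in the knockout libraries. The knockout libraries were close to Control replicates 1 and 2, and Control replicate 3 alone was high. The log2 fold change was -0.68 (SE 0.43, 95% interval -1.53 to 0.17, DESeq2 adjusted p 0.311), and it was 0.088 without Control replicate 3 (DESeq2 adjusted p 0.807). Within each library the count of Lum was set against that of Dcn, a ratio that no scaling of libraries can move. It was 0.143, 0.141 and 0.133 in the Control libraries and 0.108, 0.0236 and 0.0374 in the knockout libraries. Control replicate 3 was close to the other Control libraries in this ratio, and all knockout libraries were below it. The ratio of Postn to Dcn was 1.10, 1.03 and 0.651 in the Control libraries and 0.611, 0.210 and 0.441 in the knockout libraries, with Control replicate 3 next to TfR1 knockout replicate 1. Both differences (-1.61 and -1.23 on the log2 scale) were as extreme as 3 against 3 libraries allow (two-sided exact permutation p 0.1, the smallest possible; 0.175 adjusted over 7 ratios). With 1 library left out the difference ran from -2.22 to -1.13 for Lum to Dcn and from -1.57 to -0.79 for Postn to Dcn, in both cases largest without TfR1 knockout replicate 1 and smallest without TfR1 knockout replicate 2.

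Fn1 (chromosome 1, 71632094 to 71699774, minus strand) encodes fibronectin, a matrix protein that cells bind through integrins. Its normalized counts were 11773, 12849 and 21676 in the Control libraries and 13088, 5922 and 12396 in the knockout libraries. Control replicate 3 was high, TfR1 knockout replicate 2 was low, and the remaining 4 libraries lay close together. The log2 fold change was -0.56 (SE 0.36, 95% interval -1.27 to 0.15, DESeq2 adjusted p 0.317), and -0.24 without Control replicate 3. Against Pdgfrb in the same library, Fn1 was at 4.18, 4.35 and 4.26 in the Control libraries and at 3.77, 1.21 and 2.51 in the knockout libraries. The 3 Control ratios were nearly equal and lay above all knockout ratios (difference of -0.92 on the log2 scale, two-sided exact permutation p 0.1, 0.175 adjusted over 7 ratios). Without TfR1 knockout replicate 2 that difference was -0.47, and without TfR1 knockout replicate 1 it was -1.29. Such a ratio moves with either gene, and the log2 fold change of Pdgfrb was 0.29 (DESeq2 adjusted p 0.548). The ratio therefore does not show a fall of Fn1 alone.

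**Figure D3:**
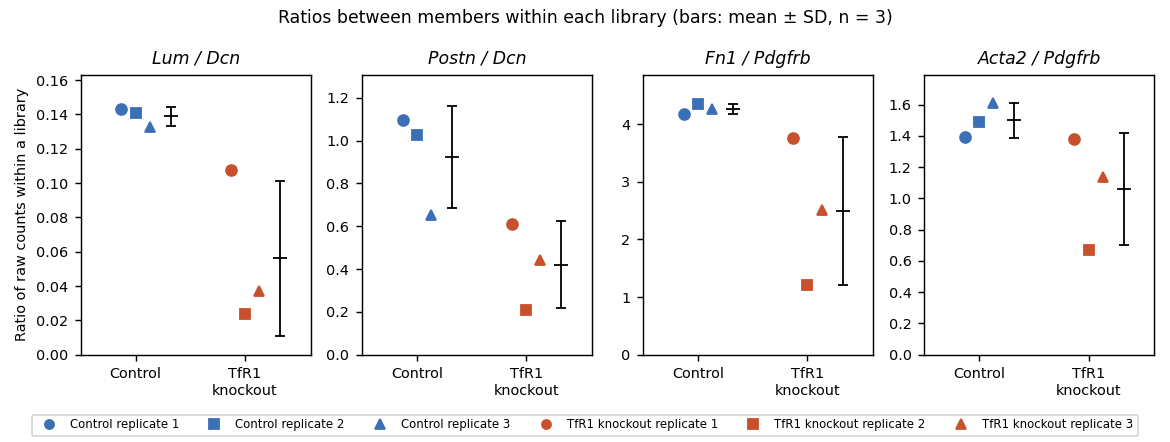
Ratios of raw counts between pairs of members within each library (vertical axes, linear from 0) for the 3 Control and 3 TfR1 knockout libraries, with the mean ± SD of each group (n = 3). The 4 panels are those of the 7 ratios whose groups did not overlap, so they were picked by outcome. In each the knockout points lie below the Control points, for Acta2 over Pdgfrb by a narrow gap (1.38 against 1.39). A lower ratio can come from either gene, and with all libraries none of Fn1, Acta2 and Pdgfrb passed the test by itself. Tagln over Acta2, Pdgfra over Pdgfrb and Vim over Des overlapped between groups and are not drawn.

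The receptors did not pass with all libraries. Pdgfra (chromosome 5, 75548316 to 75594229, plus strand) binds chiefly PDGF-A and PDGF-C. Its normalized counts were 2206, 1933 and 7452 in the Control libraries and 2125, 3704 and 3517 in the knockout libraries. Of all members it had the widest Control group, with replicate 3 at 3.60 times the mean of the other two, and all knockout libraries lay within the Control range. The log2 fold change of Pdgfra was -0.31 with all libraries (SE 0.49, 95% interval -1.28 to 0.65, DESeq2 adjusted p 0.735) and 0.59 without Control replicate 3 (DESeq2 adjusted p 0.163).

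Pdgfrb, the receptor for PDGF-B on pericytes and mesangial cells, had 2814, 2957 and 5091 normalized counts in the Control libraries and 3475, 4910.35 and 4939.8 in the knockout libraries. All knockout libraries were above Control replicates 1 and 2 and below Control replicate 3. With all libraries the log2 fold change was 0.29 (SE 0.29, 95% interval -0.27 to 0.86, DESeq2 adjusted p 0.548). Without Control replicate 3 it was 0.62, and Pdgfrb then passed the test as higher (DESeq2 adjusted p 0.0421). The ratio of Pdgfra to Pdgfrb overlapped between groups (0.654 to 1.46 in Control, 0.612 to 0.754 in TfR1 knockout). None of the 4 PDGF ligand genes passed (0 higher and 0 lower of 4; median log2 fold change -0.46). Pdgfb, made largely by endothelium and the most abundant of them, was at 849 ± 138 normalized counts in Control and 593 ± 306 in TfR1 knockout (SD, n = 3 per group; DESeq2 adjusted p 0.425). The log2 fold changes were -0.40 for Pdgfa, -0.52 for Pdgfb, -0.66 for Pdgfc and 0.25 for Pdgfd, of which Pdgfa, Pdgfc and Pdgfd were named after their values were seen.

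The contractile genes overlapped between groups. Acta2 (chromosome 19, 34315580 to 34329826, minus strand) had 3921, 4403 and 8209 normalized counts in the Control libraries and 4783, 3291 and 5609 in the knockout libraries. Control replicate 3 was the highest and TfR1 knockout replicate 2 the lowest, and the knockout range spanned Control replicates 1 and 2. The log2 fold change was -0.27 (SE 0.34, DESeq2 adjusted p 0.647), and its 95% interval ran from 0.524 to 1.31 as a fold of Control. Without Control replicate 3 it was 0.13. The 250 bases before the Acta2 start (RefSeq, GRCm38.p6, chr19:34255374-34255623, minus strand) are shown as those of a contractile gene beside the matrix gene Postn. The capitals mark a pair of CArG boxes, the element that serum response factor binds in smooth muscle genes (CC, 6 bases of A or T, then GG), each with 1 base other than A or T among its 6 central ones.
Acta2: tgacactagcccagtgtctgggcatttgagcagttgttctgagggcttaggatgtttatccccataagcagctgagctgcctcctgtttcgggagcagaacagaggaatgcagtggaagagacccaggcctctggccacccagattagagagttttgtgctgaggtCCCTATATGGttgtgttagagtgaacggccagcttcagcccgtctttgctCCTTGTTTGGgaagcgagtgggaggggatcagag
They begin 84 and 34 bases before the start. Allowing 1 such base, a CArG box was found in 8.59% of the 32851 windows of the same length, and without it in 1.47%. The CArG search reads the same on both strands. Promoter entries were matched for Acta2, Des, Pdgfra, Postn and Vim, and neither Postn window, nor those of Des, Pdgfra and Vim, held such a match. A match is a description of letters, not of a bound site.

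Tagln (chromosome 9, 45737711 to 45744141, minus strand) had 2488, 2403 and 3969 normalized counts in the Control libraries and 2929, 2179 and 3454 in the knockout libraries. Its group means were the closest of the contractile pair, 2953 ± 880.3 and 2854 ± 641 (SD, n = 3 per group; DESeq2 log2 fold change -0.05 with SE 0.28 and adjusted p 0.935). The 95% interval ran from 0.661 to 1.41 as a fold of Control, so a change of 2-fold either way lay outside it. Without Control replicate 3 or without TfR1 knockout replicate 2 the change was 0.22 or 0.12. The ratio of Acta2 to Pdgfrb was 1.39, 1.49 and 1.61 in the Control libraries and 1.38, 0.670 and 1.14 in the knockout libraries (difference of -0.56 on the log2 scale, two-sided exact permutation p 0.1, 0.175 adjusted over 7 ratios), whereas Tagln to Acta2 overlapped (0.483 to 0.635 and 0.612 to 0.662). The difference in Acta2 to Pdgfrb was -0.26 without TfR1 knockout replicate 2 and -0.78 without TfR1 knockout replicate 1. That ratio too moves with either gene, at log2 fold changes of -0.27 for Acta2 and 0.29 for Pdgfrb.

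Vim and Des encode the intermediate filament proteins vimentin, of mesenchymal cells generally, and desmin, of muscle cells, pericytes and mesangial cells. Vim (chromosome 2, 13495554 to 13504453, plus strand) had 3787, 4086 and 7212 normalized counts in the Control libraries and 3891, 2996 and 4444 in the knockout libraries. The knockout range spanned Control replicates 1 and 2, and Control replicate 3 lay above it. Its log2 fold change was -0.41 (SE 0.30, DESeq2 adjusted p 0.388; 95% interval 0.499 to 1.13 as a fold of Control), and -0.062 without Control replicate 3. Des (chromosome 1, 75356904 to 75365154, plus strand) had 392, 314 and 474 normalized counts in the Control libraries and 540.0, 179 and 369.9 in the knockout libraries. It was the exception among members in that TfR1 knockout replicate 1, not Control replicate 3, was the highest library. Its log2 fold change was -0.11 (SE 0.39, DESeq2 adjusted p 0.888), and the sign changed without Control replicate 3 (0.038) or without TfR1 knockout replicate 2 (0.21). Vim to Des ranged from 9.65 to 15.2 in Control and from 7.21 to 16.7 in TfR1 knockout. Tagln, Fn1 and Des each overlap a gene on the opposite strand (Pcsk7, Apol7d and Gm15179), and the strand setting of the counting is not given in the sources used here, so reads within the overlaps cannot be assigned to a strand.

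**Figure D4:**
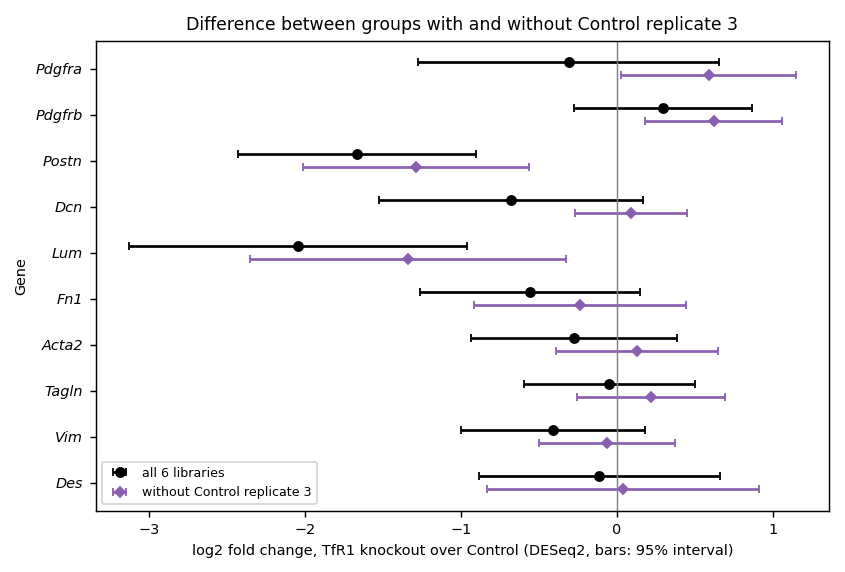
Log2 fold changes of TfR1 knockout over Control (DESeq2; bars are 95% intervals) for the 10 members with all 6 libraries (black circles) and without Control replicate 3 (violet diamonds). Without that library every estimate moves to the right, Pdgfra from -0.31 to 0.59. Those that stay below 0 are Postn (-1.67 and -1.29), Lum (-2.05 and -1.34), Fn1 (-0.56 and -0.24) and Vim (-0.41 and -0.062).

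Levels were compared between members per kilobase of annotated exon. In Control the order of mean normalized counts per kilobase was Acta2 (3094 ± 1319), Dcn (2635 ± 1890.2), Vim (2153 ± 812), Tagln (1862 ± 555), Fn1 (1849.5 ± 651), Pdgfrb (661 ± 233), Pdgfra (574 ± 462), Postn (528 ± 215), Lum (335 ± 226) and Des (105 ± 21.3; SD, n = 3). The ranges of neighbours overlapped except between Fn1 and Pdgfrb and between Lum and Des. In TfR1 knockout, Acta2 was again at the top (2561 ± 659.7), Postn had a mean of 166 ± 67.0, and Lum was at the foot of the order (81.0 ± 54.8), below Des (96.7 ± 48.1) and with a range that overlapped that of Des. Pdgfrb (811 ± 153) then lay above Pdgfra (462 ± 128) without overlap, and Pdgfra above Postn without overlap.

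Across the 6 libraries, the members fell into unlike patterns. Likeness was the mean absolute difference between log2 normalized counts (plus 1) after each gene was centred on its own mean, so that 0 is an identical pattern. Acta2 and Vim were the most alike pair (0.088), Acta2 and Tagln followed (0.13), and Pdgfrb and Lum differed most (1.25). Postn was most like Lum among members (0.33). Among the 12114 genes averaging 100 or more normalized counts, those most like Postn were Dapk2 and Nnat (0.15 and 0.16), those most like Lum were Col14a1 and Dclk1 (0.19 and 0.19), and those most like Dcn were Gucy1a3 and Calcrl (both 0.12). For Acta2 they were Adgra2 and Mrvi1 (0.065 and 0.067), for Tagln Sema6a and Rgs3 (0.031 and 0.049), for Fn1 Arap1 and Ecscr (0.041 and 0.052), for Vim Homer3 and Elk3 (0.026 and 0.049) and for Des Amigo3 and Twf2 (both 0.11). Pdgfra was most like Cyp26b1 and Crnde (0.14 and 0.15), and Pdgfrb most like Rbm3 and Hip1 (0.052 and 0.065). The genes of a library share its depth and scaling, and with 6 libraries such likeness is a description only.

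Related stromal genes, and the markers of other cells further below, were counted by the same rule. By it 7.74% of all genes tested were higher and 7.18% lower. Of 12 smooth muscle contractile genes 0 rose and 3 fell, namely Cnn1 and Synpo2 (log2 fold changes -1.36 and -1.43, DESeq2 adjusted p 0.00312 and 0.00741) and Smtn (-0.42, DESeq2 adjusted p 0.0274), while the list's median was -0.43. Of 10 pericyte and mesangial genes 1 rose and 2 fell. Notch3, a receptor of mural cells, had 1316 ± 56.1 normalized counts in Control and rose to 2017 ± 380.5 (SD, n = 3 per group; DESeq2 log2 fold change 0.62 with adjusted p 0.0166). Neither edgeR (adjusted p 0.0733), limma-voom nor DESeq2 with total-count scaling called Notch3. The call was also lost without Control replicate 1, Control replicate 2, TfR1 knockout replicate 1 or TfR1 knockout replicate 3. Itga8, an integrin subunit of mesangial and interstitial cells, fell from 2795 ± 1651 to 708 ± 196 (SD, n = 3 per group; DESeq2 log2 fold change -1.98 with adjusted p 4.31e-05; -1.98 became -1.38 without Control replicate 3), and Angpt1 fell by 0.80 on the log2 scale. Of 8 further small leucine-rich proteoglycans 0 passed, and the most abundant, Bgn, stood at 11522 ± 2992 and 10677 ± 1920.3 normalized counts (DESeq2 adjusted p 0.822). Without Control replicate 3, 1 of these 8 was called lower, Podn (log2 fold change -1.19, DESeq2 adjusted p 0.000392; -0.88 and 0.0933 with all libraries), and without TfR1 knockout replicate 1, or with a replicate block, 2 were. Of 15 other interstitial matrix genes 2 rose and 2 fell. Those that rose were Lox, which cross-links collagen and elastin, and Ctgf, a matricellular protein (log2 fold changes 1.53 and 0.92, DESeq2 adjusted p 0.023 and 3.40e-05). Thbs2 and Vcan fell (-1.65 and -1.36, DESeq2 adjusted p 0.0156 and 0.00221). The groups overlapped for Lox, with TfR1 knockout replicate 1 (1527 normalized counts) below Control replicate 3 (2337). The highest Lox level was in TfR1 knockout replicate 2 (7359). edgeR did not call Lox (adjusted p 0.138), and the groups did not overlap for Ctgf. With any 1 library left out, 1 to 2 genes of this list were called higher.

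Of 12 stromal transcription factors 2 fell, Prrx1 with 631 ± 149 normalized counts in Control and 153 ± 43.7 in TfR1 knockout (SD, n = 3 per group; DESeq2 log2 fold change -2.04 with adjusted p 8.95e-10) and Hic1 (-1.41, DESeq2 adjusted p 0.0196). Of 8 fibroblast surface genes 1 fell, Cdh11 (-1.40, DESeq2 adjusted p 0.0246). The most abundant of them, Ly6a, had its lowest Control level in replicate 3 (9804 normalized counts), where every member had its highest. Which cells carried the genes of that list was not tested. Of 3 fibrillar collagens 1 fell, Col3a1 (-1.15, DESeq2 adjusted p 0.0249). Of these calls 5 were lost without Control replicate 3, at log2 fold changes of -1.03 for Synpo2, -0.90 for Thbs2, -1.07 for Hic1, -0.77 for Cdh11 and -0.68 for Col3a1. The same fit gained 4 calls, with Mcam (0.66), Abcc9 (1.01) and Ebf1 (0.70) higher and Podn lower. The genes lost and gained are named for that reason, after their values were seen. Of the genes of these 7 lists edgeR called Itga8 and Prrx1 lower and Ctgf higher. Control replicate 3 was the highest of the 6 libraries for 7 of 12 contractile genes, 6 of 10 pericyte and mesangial genes, 2 of 8 small leucine-rich proteoglycans, 8 of 15 other matrix genes, 10 of 12 transcription factors, 5 of 8 surface genes and 3 of 3 collagens. Over all genes tested the share was 22.1%, and the small leucine-rich proteoglycans were near it.

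**Figure D5:**
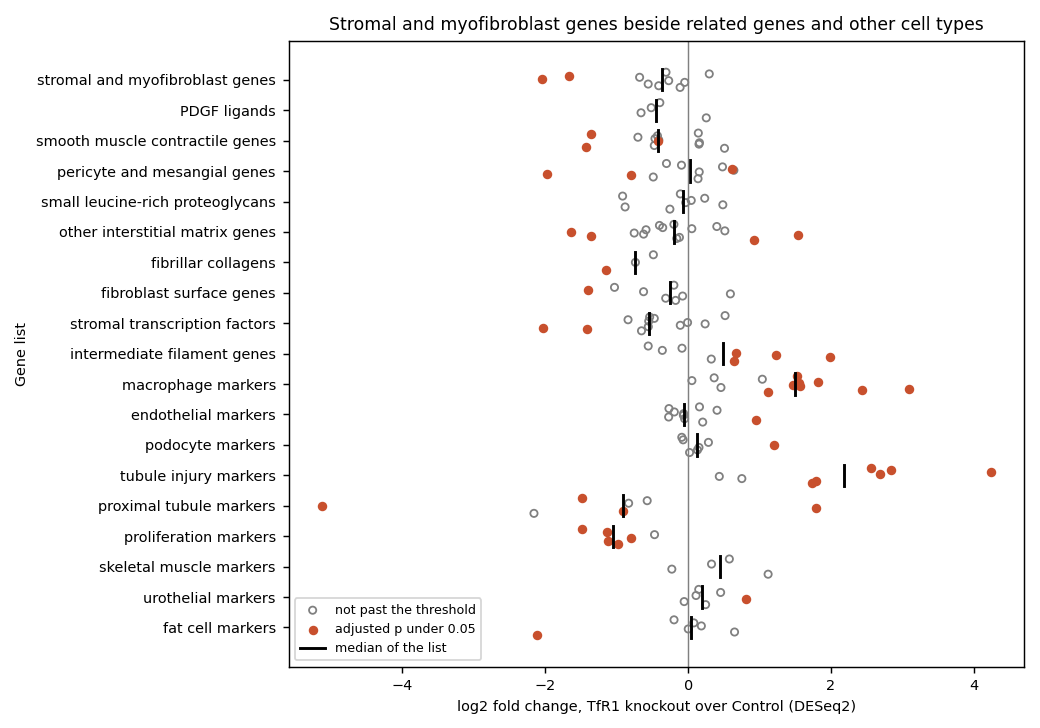
Log2 fold changes of TfR1 knockout over Control (horizontal axis, DESeq2) for the genes of each list (rows). Filled points passed an adjusted p under 0.05, open points did not, and the black bar is the median of the list. The median of the stromal and myofibroblast genes is -0.36, those of macrophage and tubule injury markers are 1.49 and 2.17.

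Markers of other cells that can carry Vim, Fn1, Acta2 or Des moved with the groups in part. Of 12 macrophage markers 8 rose, led by Cd14, Itgam and Lyz2 (log2 fold changes 3.08, 2.44 and 1.81), and their summed level ran from 2938 to 5017 normalized counts in Control and from 8215 to 10556 in TfR1 knockout. Of 8 tubule injury markers 6 rose (summed level 32231 to 39735 and 93576 to 154313). Most of that sum was Spp1, named for this reason (31169 ± 2975 normalized counts in Control and 107991 ± 24851 in TfR1 knockout, SD, n = 3 per group). Of 8 further intermediate filament genes 4 rose, among them the epithelial keratins Krt19 and Krt18 (1.99 and 1.23), in the same kidneys in which Vim did not pass. Of 6 proliferation markers 5 fell (7052 to 8884 and 2527 to 4375), led by Mki67, Top2a and Bub1 (-1.49, -1.14 and -1.12). Of 10 endothelial markers 1 rose, Flt1 (0.95), and the sums overlapped (28307 to 44660.3 and 30091 to 38863). Of 7 podocyte markers 1 rose, Wt1 (1.20; sums 11288 to 17485 and 16413.5 to 19616). Of 7 proximal tubule markers 1 rose, Slc22a6 (1.79), and 3 fell, Slc5a2, Lrp2 and Aqp1 (-5.12, -1.48 and -0.92; sums 56599.8 to 122728 and 40607 to 66931). Tissue around the kidney was represented by 6 markers each of skeletal muscle, urothelium and fat. Their sums overlapped between groups and were 41.2 to 116 and 48.6 to 156 for muscle, 1184 to 1789 and 1714 to 2137 for urothelium, and 10343 to 18516 and 12172 to 15022 for fat, and Upk3a rose (0.80) and Ucp1 fell (-2.12). Most of the fat sum was Fabp4 (8713 ± 2162 normalized counts in Control and 9899 ± 2669 in TfR1 knockout, SD, n = 3 per group). Which cells the Fabp4 counts came from was not tested. Ucp1 fell without overlap, from 3010 ± 1300 to 694 ± 262, so the sum does not describe each fat marker. No marker of any of these lists was at 0 in all libraries, and 2 muscle markers were at 0 in at least 1. Counts differed between tests in several of these lists. edgeR called 6 of the macrophage markers and 5 of the tubule injury markers higher, 1 of the intermediate filament genes (Krt19), 0 of the endothelial markers, 1 proximal tubule gene each way (Slc22a6 higher and Slc5a2 lower), 3 of the proliferation markers lower, and Wt1 and Ucp1 but not Upk3a. DESeq2 without Control replicate 3 called 9 macrophage markers, 2 endothelial markers and 2 urothelial markers higher, 5 proximal tubule genes and 4 proliferation markers lower, and 1 intermediate filament gene lower beside 4 higher. The part of these cells in the results for the members was not tested.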

How the data were processed

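Per the labels and the study's methods, the authors prepared TruSeq libraries from poly-A RNA and sequenced single-end reads. They used CASAVA 1.8.2, Trimmomatic, TopHat2 2.0.11 on mm9 and HTSeq, and deposited raw counts per gene from uniquely mapped reads, with no normalization. The annotation and strand setting of HTSeq are not given in the sources used here. Counting error depends on a gene's own counts, which among the members were lowest for Lum in TfR1 knockout replicate 2 (62 raw counts). The 3 libraries per group also limit precision.

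The members and gene lists were chosen with earlier results of these data known. Groups came from the sample titles. All genes were fitted with DESeq2 1.42.0 (R 4.3.3), the tool the study names: Wald test, median-ratio size factors, no covariate, Benjamini-Hochberg adjustment and independent filtering tuned at 0.05. An adjusted p was obtained for 16509 genes. Normalized counts are counts divided by those size factors. Intervals are Wald 95% intervals. Alternatives were edgeR 4.0.16 (quasi-likelihood, TMM), limma 3.58.1 with voom, other scalings and filters, a replicate block and leaving out each library. The code was tested on simulated data. There 26.8% of DESeq2 calls, 8.73% of edgeR calls and 8.13% of limma-voom calls were false, each more than the threshold allows. DESeq2 recovered 60% and 93% of changes of 1 and 2 on the log2 scale, edgeR 29% and 86%, and limma-voom 28% and 85%. Only 100 genes of each size of change were set among 19985, far fewer than were called here, so these shares do not carry over. DESeq2 calls that edgeR does not make were taken as less firm, and whether they are false was not tested. Named genes were the members, at most 3 genes a direction in each list among those past the threshold (mean of at least 50, largest change), the gene of highest mean count in a list with under 3 such genes, 2 pattern neighbours a member and Tfrc. Exceptions are stated in the text. Emr1 was read as Adgre1. Positions came from the GENCODE annotation of NCBIM37 (mm9), matched by symbol, and promoters from RefSeq (GRCm38.p6), matched for 5 of 10 members. Ratios used raw counts.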

Additional observations from a re-analysis of the deposited data

How the results depend on the processing

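Postn kept its direction in all fits and Lum did too. The number of members called lower was 2 with DESeq2 on all libraries, 0 with edgeR, 1 with edgeR without a filter on low counts (Postn) and 1 with limma-voom, and 1 to 2 when any 1 of the 6 libraries was left out. The number called higher ran from 0 to 1 in those fits, with Pdgfrb called without Control replicate 3. The members' median log2 fold change ran from -0.59 to 0.063, the latter without Control replicate 3. In the same 6 fits the log2 fold changes that changed sign ran from -0.64 to 0.59 for Pdgfra, -0.97 to 0.088 for Dcn, -0.47 to 0.13 for Acta2, -0.21 to 0.22 for Tagln and -0.51 to 0.21 for Des, and the log2 ratio of Vim to Des from -0.42 to 0.19. None of these 5 genes passed the test in any fit.

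Over all genes, 493 were higher and 428 lower with edgeR, 510 and 445 with edgeR unfiltered, 485 and 456 with limma-voom, and 728 and 736 where a 2-fold change was also required. Leaving out 1 library gave 664 to 1531 higher and 575 to 1674 lower, lowest without Control replicate 1 and highest without TfR1 knockout replicate 1. Without Control replicate 2 they were 705 and 627, and without TfR1 knockout replicate 3, 853 and 659. The cause was not tested. A replicate block in the model gave 1085 genes higher and 1087 lower, with 2 members lower. Same-numbered libraries did not deviate together (correlations of deviations from the group means -0.042, -0.010 and 0.082 across 13153 genes), and not every library correlated best with its own number, so the numbers were not taken as pairs. The lowest raw count of a member was 62, for Lum in TfR1 knockout replicate 2.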
